A study of Homo sapiens with 15 samples.

Results

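The genes described here build the contacts between epithelial cells. They are the 33 rows of a count table of 19143 genes that belong to the tight junction, the desmosome, the adherens junction and the gap junction. The list names 13 claudins, 4 other membrane proteins and 3 plaque proteins of the tight junction, 7 desmosome genes, 4 genes of the adherens junction including EPCAM, and 2 connexins. The members were listed by name and not by their values. After the filter on low counts, 30 members were tested in the first round of groups and 29 in the second, as set out below.

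RNA sequencing measured the human liver cancer line MHCC-97H, established from a hepatocellular carcinoma, in 15 libraries of 5 groups with 3 libraries each. A round here means a set of groups that were fitted together, and the sample labels and column names give no sequencing batch. The first round holds cells in an animal model, cells in a 3D model and cells in a 2D model. The second round holds cells in the 3D model after heat treatment and their treatment control in the 3D model, which was not heated per the series design. The study's title concerns mechanical confinement and resistance to heat, and its design asks what a 3D environment adds and what heat changes in it. All groups share the 1 cell line and no genetic change is named. The labels give neither the host animal and implantation site, nor the material of the 3D model, nor temperature, duration of heating or time of collection. They call the replicates biological without saying that they are separate cultures or animals, so p-values measure the spread between these libraries. Total counts per library were 12605539 to 14538432 in animal, 16632141 to 18634295 in 3D, 17789899 to 17879280 in 2D, 15991686 to 16112893 in heat and 16789095 to 16963026 in control.

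Tight junctions seal the space between neighbouring epithelial cells. Claudins form the strands of the seal and set which ions pass, occludin and the MARVEL-domain proteins organise the strands, and the ZO proteins TJP1 and TJP3 and cingulin tie them to actin. Desmosomes anchor keratin filaments through the cadherins DSG2 and DSC2, the armadillo proteins JUP and PKP2 to PKP4, and desmoplakin. E-cadherin (CDH1) and its catenins form adherens junctions, and connexins form channels between cells. In the liver, hepatocytes use junctions to enclose bile canaliculi, and connexin 32 (GJB1) is the main hepatocyte connexin.

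Promoter sequences are shown first for 4 claudins whose levels are described below. CLDN4 and CLDN7 passed the test as higher in 3D than in 2D, and CLDN1 as higher in animal than in 3D. In heat, every library had less CLDN1 and more CLDN15 than every control library, but neither gene passed the test there. Each sequence is the 250 bases before a RefSeq transcript start in GRCh38.p14, on the gene's strand, 5′ to 3′. Capitals mark matches to the E-box CAGGTG (the SNAI and ZEB motif), to TGANTCA (the AP-1 motif) or to GAANNTTC (a heat shock element core), searched on both strands. CLDN7 has 2 such windows, and the one with matches is shown. The windows are chr7:73830746-73830995 (+ strand) for CLDN4, chr17:7262479-7262728 (− strand) for CLDN7, chr3:190322447-190322696 (− strand) for CLDN1 and chr7:101237803-101238052 (− strand) for CLDN15.
CLDN4: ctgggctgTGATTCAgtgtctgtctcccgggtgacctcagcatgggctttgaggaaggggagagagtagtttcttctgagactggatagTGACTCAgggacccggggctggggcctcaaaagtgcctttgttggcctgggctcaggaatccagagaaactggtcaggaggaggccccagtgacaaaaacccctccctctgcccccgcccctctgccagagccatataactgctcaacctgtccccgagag
CLDN7: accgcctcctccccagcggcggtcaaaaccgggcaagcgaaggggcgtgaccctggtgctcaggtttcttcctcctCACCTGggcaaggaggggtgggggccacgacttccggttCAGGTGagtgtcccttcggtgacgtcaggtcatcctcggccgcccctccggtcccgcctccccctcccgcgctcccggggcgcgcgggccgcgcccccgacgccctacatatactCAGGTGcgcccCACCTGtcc
CLDN1: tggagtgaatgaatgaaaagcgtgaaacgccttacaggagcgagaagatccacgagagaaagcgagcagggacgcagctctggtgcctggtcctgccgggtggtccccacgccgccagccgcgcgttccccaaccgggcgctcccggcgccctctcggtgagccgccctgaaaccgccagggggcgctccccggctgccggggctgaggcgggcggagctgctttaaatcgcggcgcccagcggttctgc
CLDN15: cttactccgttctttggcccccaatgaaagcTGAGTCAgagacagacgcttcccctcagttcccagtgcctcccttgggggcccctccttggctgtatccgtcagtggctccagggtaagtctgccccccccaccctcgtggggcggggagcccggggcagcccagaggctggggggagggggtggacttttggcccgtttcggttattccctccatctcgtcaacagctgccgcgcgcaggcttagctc
The CLDN7 window held 4 E-box matches, 2 within its last 20 bases. The CLDN4 window held 2 AP-1 matches and the CLDN15 window 1, while the CLDN1 window held none of the 3 motifs.

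RefSeq promoter windows matched 24 of the 33 members, in 41 windows. CLDN9, CLDN23, MARVELD3, F11R, PKP2, PKP3, CDH1, CTNND1 and EPCAM had no entry. An E-box was in 10 of the 41 windows (24.4%), against 17.5% of all 35116 promoter windows of the same length. An AP-1 match was in 3 windows (7.32%), in CLDN2, CLDN4 and CLDN15, against 6.57% of all. GAANNTTC was in 0 of 41, against 5.78% of all. The GC box GGGCGG, the motif of SP1, which the study's title names, was in 27 of 41 windows (65.9%), against 42.6% of all, and in at least 1 window of 20 of the 24 members. In the member windows, 5 pairs of matches overlapped each other. A match describes letters, not binding.

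Per kilobase of the longest coding transcript, the catenins CTNNA1 and CTNND1, JUP and CLDN4 were among the first 6 members in every group, while CDH1 ranked 11 to 20 and DSC2 17 to 20. Levels are counts scaled to the library total (CPM), scaled by edgeR's TMM over all 15 libraries, and these are divided by length. In animal the order began with CTNNA1 at 90.3 CPM per kilobase, CTNND1 at 75.2, DSG2 at 53.2 and CLDN4 at 48.3. In 3D it began with JUP at 227 CPM per kilobase, CLDN4 at 169 and CTNNA1 at 109. In 2D it began with CTNNA1 at 101 CPM per kilobase, JUP at 95.4, CTNND1 at 80.5 and CLDN4 at 58.5. In heat CLDN4 was first at 144 CPM per kilobase with JUP next at 78.4, whereas in control JUP was first at 117, CTNNA1 next at 108, and CLDN4 the fifth at 67.7.

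The epithelial keratins KRT8, KRT18 and KRT19 summed to 2790 to 3070 CPM in animal, 3000 to 10300 in 3D and 3640 to 3780 in 2D. Most of the sum was KRT8, with 2970 to 3060 CPM in 2D. The cells thus expressed epithelial keratins, but in 2D the cadherin CDH2 had 148 to 151 CPM against 24.7 to 34.3 CPM of E-cadherin (CDH1). Of the defining hepatocyte markers, ALB had 2.37 ± 0.229 CPM and APOB 24.0 ± 1.52 CPM in 2D (SD, n = 3). EPCAM, an epithelial adhesion molecule that the list includes, was nearly absent, at 0.461 ± 0.154 CPM in animal, 0.255 ± 0.309 in 3D and 0.356 ± 0.0828 in 2D (SD, n = 3 each). It had 47 reads in all heat libraries together and 20 in control. CLDN10 and CLDN11 were also below 1 CPM on average in every group, and their highest single values were 0.561 CPM in heat replicate 1 and 2.02 CPM in animal replicate 2. CLDN6, a claudin of early embryonic epithelia, had 0 reads in all 3 animal libraries, where each allows up to 3 reads, against 8 reads in 3D and 6 in 2D. CLDN6 reached 2.53 CPM in heat replicate 1, with 0.0967 and 1.23 CPM in heat replicates 2 and 3, against 0.0586 to 0.229 CPM in control.

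The libraries within a group did not all look alike, and this bears on every comparison below. 3D replicates 1 and 2 and heat replicate 1 stood apart from their own groups in how levels went with transcript GC content. Across the 30 members with a level and a reference transcript, the log2 difference from the 2D mean rose with transcript GC content in 3D replicate 1 (Spearman's rho = 0.687) and 3D replicate 2 (0.802) and hardly in 3D replicate 3 (0.0265). The same correlation with the control mean was 0.524 in heat replicate 1, 0.0145 in heat replicate 2 and −0.0501 in heat replicate 3, and it was −0.192 to −0.03 in the animal libraries. Across all 13123 genes with a level, rho was 0.707, 0.798 and 0.11 in 3D replicates 1 to 3 and 0.538, −0.0981 and −0.208 in heat replicates 1 to 3. With transcript length, rho over the members was −0.322, −0.4 and −0.0358 in 3D replicates 1 to 3 and −0.527, −0.225 and −0.166 in heat replicates 1 to 3. It was −0.419 to −0.284 in the animal libraries against 2D, so over the members it was about as strong in animal as in 3D replicates 1 and 2. Across all 13123 genes this did not hold. There rho with length was −0.458, −0.413 and −0.123 in 3D replicates 1 to 3, and −0.1 to −0.00503 in the animal libraries. In heat replicates 1 to 3 it was −0.454, −0.00246 and 0.0777. These are descriptions over genes that share a library, not tests. Without 3D replicate 3 the members called were 9 higher and 9 lower in 3D against 2D, and 14 higher and 6 lower in animal against 3D. The same fit called 4560 genes higher and 4933 lower in 3D against 2D, and 5596 and 4536 in animal against 3D. The part of GC content and length in the results was not tested. An offset for both, and fits that leave out the libraries standing apart, are given beside the first-round calls of members that they end. Without 3D replicates 1 and 2 the 3D group holds 1 library. Calls of that fit against 3D carry no spread within 3D, also where counts of alternatives include it.

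**Figure D1:**
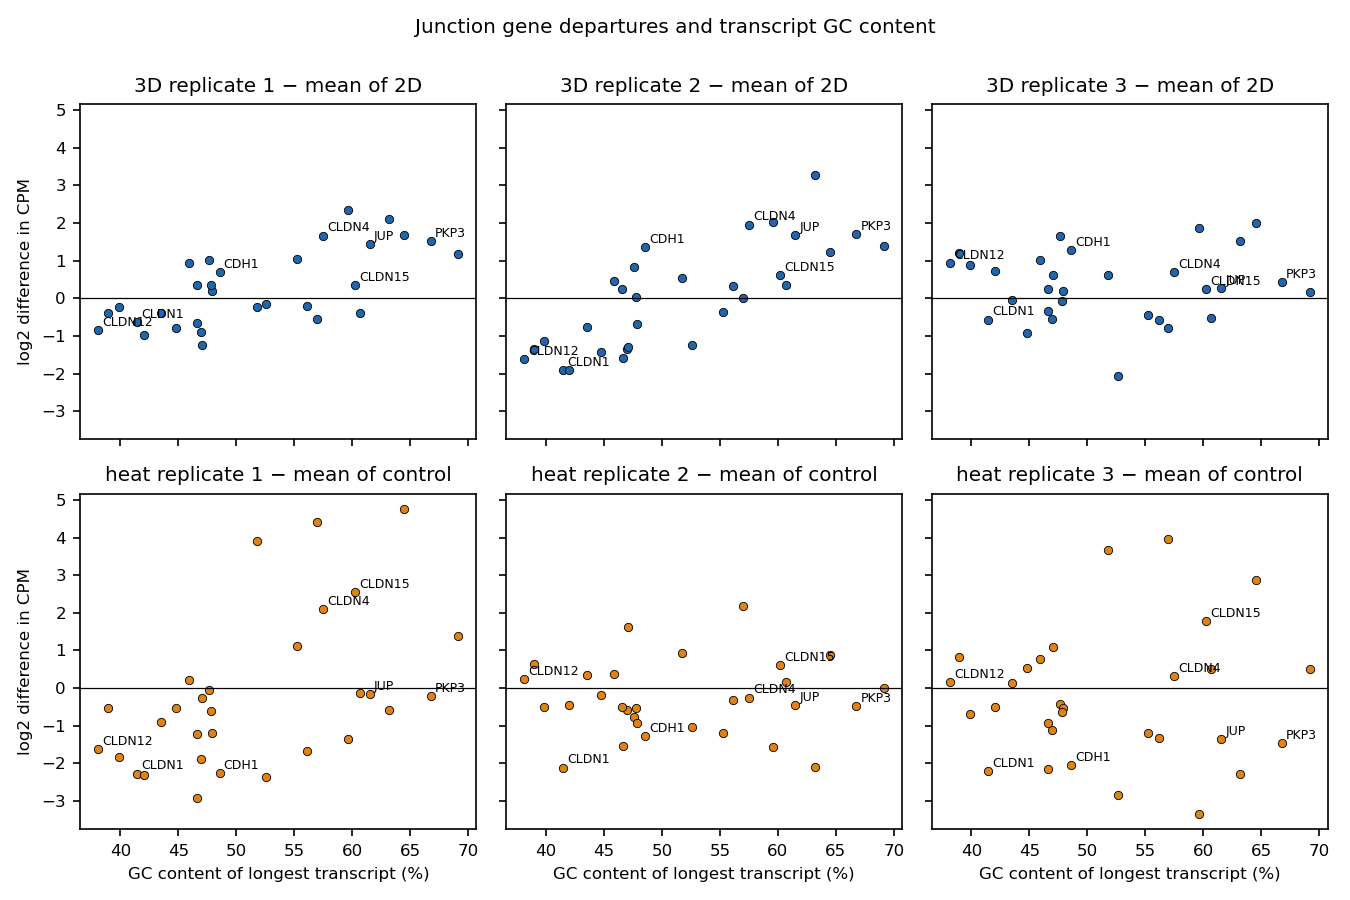
Each point is 1 junction gene, with the GC content of its longest coding transcript on the x axis (%) and the log2 difference in CPM between 1 library and the mean of its reference group on the y axis, for 3D replicates 1 to 3 (top) and heat replicates 1 to 3 (bottom). Points slope upward in 3D replicates 1 and 2 (rho 0.687 and 0.802) and heat replicate 1 (0.524), and not in the other 3 libraries.

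In 3D, 7 junction genes were higher than in 2D and 2 were lower. The 7 were the claudins CLDN4, CLDN7 and CLDN9, the plaque protein TJP3, the adhesion molecule F11R, the desmosomal PKP3 and E-cadherin, and the 2 lower were TJP1 and PKP4. Of the 30 tested members, 21 were not called. Of all 12925 genes tested, 32.9% were called, 20.0% higher and 12.9% lower, so the members' share was near the background. The members' median log2 fold change was 0.07, beside 0.03 over all genes. No CPM value of 3D lay within the 2D range, or the reverse, in 15 of the 30 members, beside 50.1% of all genes. The control libraries of the second round, also in the 3D model, were not tested against 2D. There too the 7 genes lay above every 2D library, CLDN4 at 268 to 297 CPM against 232 to 255 CPM in 2D. TJP1 lay below 2D, at 111 to 123 CPM against 128 to 131 CPM. PKP4 overlapped 2D, at 93.8 to 97.7 CPM against 97.0 to 104 CPM. A call is an adjusted p below 0.05 in edgeR's quasi-likelihood test with Benjamini-Hochberg adjustment over all genes, and log2 fold changes carry their standard error.

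In animal, 5 members were higher than in 2D (CLDN7, MARVELD3, CDH1, GJB1 and GJB2) and 0 were lower, with 25 not called. The background was 12.0% of all genes called, 7.78% higher and 4.25% lower. An unadjusted p below 0.05 was reached by 15 members, beside 3432 of all 12925 genes, and DESeq2 called 8 higher and 1 lower (TJP1), beside 1430 and 1007 of all genes. Against 3D, animal had 7 members higher (CLDN1, CLDN2, CLDN14, MARVELD3, DSC2, PKP4 and GJB1) and 3 lower (CLDN4, JUP and PKP3), with 20 not called, and 41.5% of all genes were called, 18.6% higher and 22.9% lower. The members' median log2 fold change was 0.67 against 2D and 0.45 against 3D, beside 0.03 and 0.10 over all genes. Animal and 2D did not overlap in 23 of the 30 members, beside 66.7% of all genes, and animal and 3D in 15, beside 50.1%. The 3 comparisons share libraries and 1 estimate of the spread. Fitted with the animal and 2D libraries alone, animal against 2D had 16 members higher and 4 lower, and 3751 and 3538 of all genes. Without 3D replicates 1 and 2 it had 15 higher and 4 lower, and 3865 and 3696 of all genes.

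**Figure D2:**
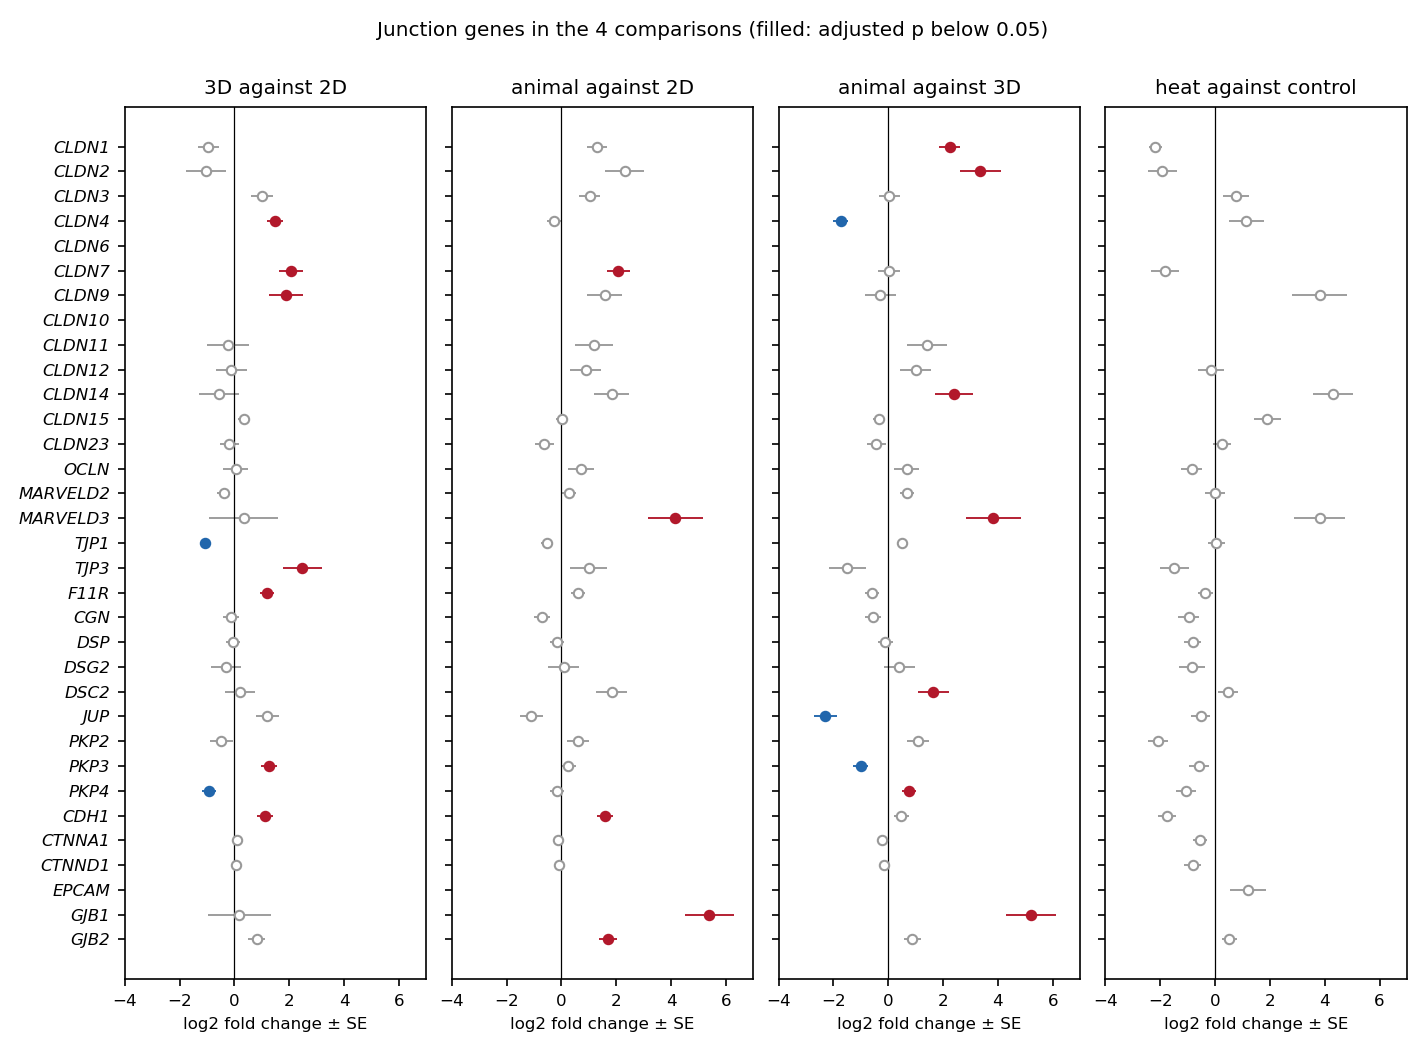
Log2 fold change (x axis, ± standard error, n = 3 libraries a group) of every tested junction gene, 1 row a gene, in the 4 comparisons. Filled points passed adjusted p below 0.05, red for higher and blue for lower, and open grey points did not. The filled points number 9 in 3D against 2D, 5 in animal against 2D, 10 in animal against 3D and 0 in heat against control.

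CLDN4, which encodes the claudin with most reads in every library, was highest in 3D among the groups of the first round. It had 215, 199 and 189 CPM in animal, against 774, 945 and 394 CPM in 3D and 232, 243 and 255 CPM in 2D. Every 3D library stood above every animal and 2D library, and 3D replicate 3 was the lowest of the 3D group. The log2 fold change of CLDN4 was 1.48 ± 0.28 comparing 3D and 2D (adjusted p = 0.00598) and −1.74 ± 0.28 for animal against 3D (adjusted p = 0.00232). Both calls held in all 16 alternatives, but the size did not. With the GC and length offset the values were 0.95 and −1.20, and without 3D replicates 1 and 2 they were 0.70 and −0.98. CLDN4 made up 48.6 ± 3.12% of claudin reads in animal, 83.8 ± 10.1% in 3D and 72.0 ± 0.817% in 2D (SD, n = 3 each). In 3D the share was 87.3% and 91.6% in replicates 1 and 2 and 72.4% in replicate 3, the last close to the 2D libraries.

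**Figure D3:**
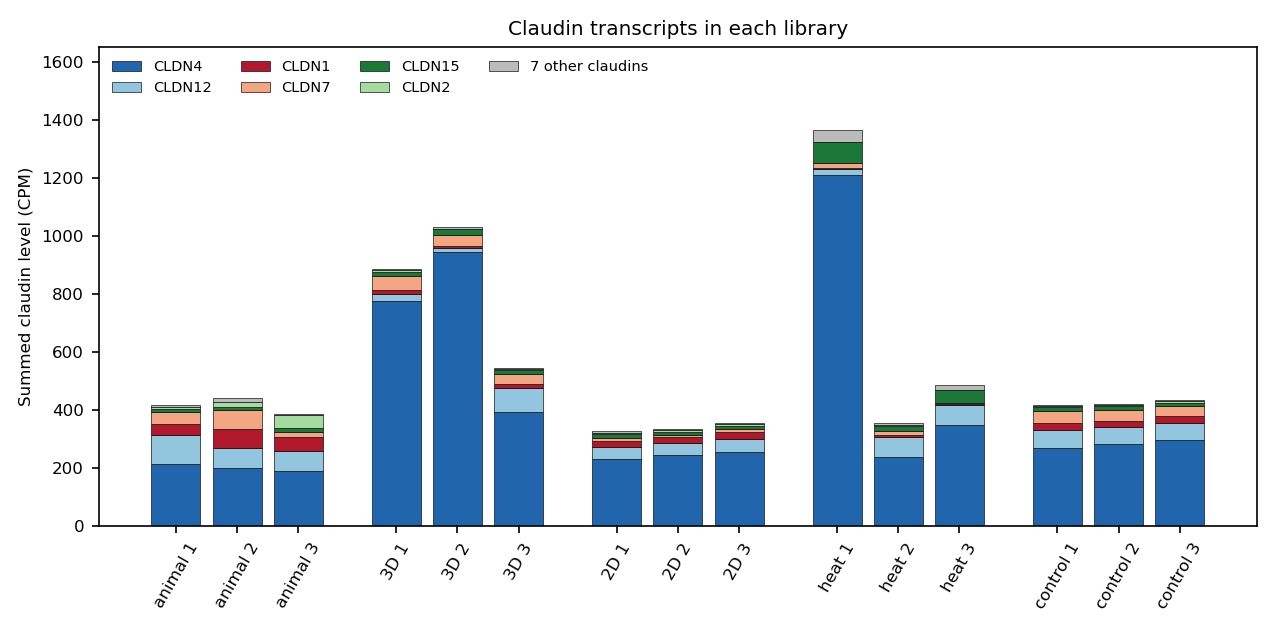
Stacked bars give the summed CPM of the 13 claudins in each library, with CLDN4, CLDN12, CLDN1, CLDN7, CLDN15 and CLDN2 drawn apart from the 7 others. The sum was 386 to 439 CPM in animal, 544 to 1030 in 3D, 325 to 355 in 2D, 354 to 1370 in heat and 416 to 434 in control, and CLDN4 is the largest block in each bar.

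CLDN7, a claudin of many simple epithelia, was higher than 2D in both other groups of the round. It had 40.0, 63.5 and 16.7 CPM in animal, against 49.6, 39.3 and 35.1 CPM in 3D and 9.41, 9.08 and 10.4 CPM in 2D. The 2D libraries lay below all 6 others, while animal and 3D overlapped. The log2 fold change was 2.06 ± 0.43 in 3D against 2D (adjusted p = 0.00843) and 2.08 ± 0.43 in animal against 2D (adjusted p = 0.0146). In 3D against 2D the GC and length offset ended the call (1.17, adjusted p = 0.0594). In animal against 2D the adjusted p was 0.0626 to 0.0729 without any 1 of the 2D libraries. An annotated readthrough gene, AC003688.1, covers 10.8% of the exon bases of CLDN7 on the same strand, and how reads there were counted is not given in the sources used here.

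CLDN1 and CLDN2, a sealing claudin and a claudin that forms cation pores, were higher in animal than in 3D. CLDN1 had 40.2, 67.5 and 49.6 CPM in animal, against 13.9, 5.67 and 14.5 CPM in 3D and 20.5, 20.1 and 24.0 CPM in 2D. The 3 groups did not overlap, and the order was animal, 2D, 3D. Animal exceeded 3D by a log2 fold change of 2.25 ± 0.38 (adjusted p = 0.00291), which the GC and length offset took to 1.30 (adjusted p = 0.0031). Animal against 2D gave 1.30 ± 0.37 for CLDN1 without passing the test (adjusted p = 0.053). CLDN2 had 5.86, 17.8 and 46.2 CPM in animal, against 4.24, 1.91 and 1.04 CPM in 3D and 5.24, 4.51 and 4.45 CPM in 2D. The animal libraries spread widely, from just above 2D to far above it. Animal against 3D gave 3.36 ± 0.76 for CLDN2 (adjusted p = 0.00906), with a range of 2.38 to 4.47 over 16 alternatives that all kept the call, and animal against 2D gave 2.31 ± 0.71 (adjusted p = 0.07). CLDN2 also passed in animal against 2D without animal replicate 1 (2.77, adjusted p = 0.0325). With the GC and length offset, CLDN1 and CLDN2 passed the test in animal against 2D, at 1.08 (adjusted p = 0.00896) and 2.24 (adjusted p = 0.0271).

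Other claudins stood at lower levels or moved with few reads. CLDN9 was called higher in 3D than in 2D on 41 against 14 reads, at 0.943, 0.662 and 1.22 CPM in the 3D libraries and 0.428, 0.265 and 0.0537 CPM in the 2D libraries. Its log2 fold change of 1.87 ± 0.62 (adjusted p = 0.0465) lost the call in 10 of 14 alternatives, among them the fits without 1 of the 2D libraries, or without 3D replicate 1 or 3 (adjusted p 0.0593 to 0.13), and the GC and length offset (0.93, adjusted p = 0.357). CLDN14, a claudin of the inner ear and kidney, had 0.897, 3.77 and 0.838 CPM in animal against 0.314, 0.515 and 0.245 CPM in 3D, and animal replicate 2 held most of the difference. Its log2 fold change was 2.40 ± 0.68 (adjusted p = 0.0221), and 1.33 without that library (adjusted p = 0.0531). It was also not called without 3D replicate 1 (2.32, adjusted p = 0.0757), and without 3D replicates 1 and 2 it was 2.85. CLDN12 had 97.4, 67.9 and 67.8 CPM in animal against 23.5, 13.7 and 81.0 CPM in 3D and 41.0, 42.6 and 43.6 CPM in 2D. It was not called in these comparisons, and 3D replicate 3 lay far above the other 3D libraries. CLDN3, CLDN15 and CLDN23 were not called either, with group means of 1.41 to 2.93, 11.7 to 15.4 and 1.21 to 1.89 CPM.

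Among the other membrane proteins of the tight junction, F11R was higher in 3D and MARVELD3 was higher in animal. F11R encodes JAM-A, an immunoglobulin-like adhesion molecule. It had 111, 107 and 88.8 CPM in animal, against 136, 121 and 215 CPM in 3D and 64.0, 70.6 and 68.1 CPM in 2D. The 3 groups did not overlap, with 3D highest and 2D lowest. The log2 fold change was 1.19 ± 0.25 in 3D against 2D (adjusted p = 0.00941), with a range of 0.85 to 1.68 over 16 alternatives that all kept the call. F11R was highest in 3D replicate 3, unlike CLDN4. The gene AL591806.3 shares 36.6% of the exon bases of F11R on the same strand, so reads may be split between them.

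MARVELD3, a MARVEL-domain relative of occludin, had 1.02, 5.99 and 0.957 CPM in animal, against 0.0786, 0.221 and 0.245 CPM in 3D and 0, 0.159 and 0.268 CPM in 2D. Every animal library was above every 3D and 2D library, and animal replicate 2 was far above the other animal libraries. The log2 fold change was 4.16 ± 1.01 against 2D (adjusted p = 0.0293) and 3.83 ± 1.01 against 3D (adjusted p = 0.0171), on 122 reads in animal and 8 in each of 3D and 2D. Without animal replicate 2 the values were 2.74 (adjusted p = 0.0721) and 2.41 (adjusted p = 0.0535), and the call was also lost without any 1 of the 2D libraries (adjusted p 0.0768 to 0.113) or, against 3D, without 3D replicate 1 (0.0679). Without 3D replicates 1 and 2 the MARVELD3 value against 3D was 3.38. PHLPP2 on the opposite strand covers 16.6% of its exon bases, and without a known strand setting reads from both cannot be told apart. OCLN, the gene of occludin, had 13.9, 14.7 and 10.6 CPM in animal, against 6.84, 3.61 and 14.9 CPM in 3D and 8.18, 7.70 and 8.26 CPM in 2D, with no call. MARVELD2, tricellulin of the contacts where 3 cells meet, averaged 16.4, 10.6 and 13.7 CPM in animal, 3D and 2D and was not called.

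The ZO proteins moved apart from each other in 3D. TJP1 (ZO-1) had 84.5, 92.5 and 84.9 CPM in animal, against 74.3, 47.8 and 68.2 CPM in 3D and 128, 131 and 128 CPM in 2D. TJP3 (ZO-3) had 2.81, 11.1 and 1.79 CPM in animal, against 11.9, 26.7 and 7.95 CPM in 3D and 2.73, 2.49 and 2.79 CPM in 2D. All 3D libraries were below 2D for TJP1 and above 2D for TJP3. On the log2 scale TJP1 fell by 1.06 ± 0.20 in 3D (adjusted p = 0.00634 against 2D), and the GC and length offset ended that call (−0.35, adjusted p = 0.139). TJP3 rose by 2.48 ± 0.70 (adjusted p = 0.0267), and lost the call in 8 of 16 alternatives, among them the offset (1.54, adjusted p = 0.0614), leaving out any 2D library (adjusted p 0.085 to 0.0931), and leaving out 3D replicate 1 (0.0554) or 2 (0.0736). Without both of these 3D libraries the TJP3 value was 1.58. Cingulin (CGN), at 63.5 ± 21.9, 97.6 ± 31.1 and 104 ± 6.5 CPM in animal, 3D and 2D (SD, n = 3 each), was not called.

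In the desmosome the plaque genes JUP and PKP3 were lowest in animal or highest in 3D, while the cadherin DSC2 was highest in animal. JUP, plakoglobin, had 128, 241 and 94.7 CPM in animal, against 906, 1080 and 402 CPM in 3D and 333, 331 and 337 CPM in 2D. Animal lay below 2D and 2D below 3D in every library. On the log2 scale JUP fell by 2.29 ± 0.42 in animal (adjusted p = 0.00401 against 3D), a call kept in all 16 alternatives with a range of −2.77 to −1.37. In 3D against 2D it just missed the threshold (1.20 ± 0.41, adjusted p = 0.0507), and it was 0.28 without 3D replicates 1 and 2 (adjusted p = 0.629). In animal against 2D it was −1.09 ± 0.41 (adjusted p = 0.123), and −1.58 without animal replicate 2 (adjusted p = 0.0481).

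PKP3, plakophilin 3, had 141, 120 and 117 CPM in animal, against 308, 346 and 144 CPM in 3D and 110, 109 and 101 CPM in 2D. The 3D libraries stood above both other groups, though 3D replicate 3 barely cleared animal replicate 1. PKP3 rose by 1.26 ± 0.28 in 3D against 2D (adjusted p = 0.0114) and fell by 1.01 ± 0.28 in animal against 3D (adjusted p = 0.0212). The GC and length offset took these to 0.22 (adjusted p = 0.251) and 0.31 (adjusted p = 0.105), the second with its sign turned. The fall was not called without any 1 of the 3D replicates 1 and 2 or the animal libraries (adjusted p 0.0502 to 0.0741), and the rise was not called without 2D replicate 2 (0.0511) or 3 (0.0537). Without both 3D replicates 1 and 2, animal against 3D was −0.20.

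PKP4, a plakophilin relative that also joins adherens junctions, had 81.4, 108 and 74.8 CPM in animal, against 53.2, 39.2 and 68.3 CPM in 3D and 97.6, 104 and 97.0 CPM in 2D. All 3D libraries were the lowest of the first round, while the control libraries, also in the 3D model, had 93.8, 96.6 and 97.7 CPM. PKP4 fell by 0.92 ± 0.25 in 3D against 2D (adjusted p = 0.0243) and rose by 0.76 ± 0.25 in animal against 3D (adjusted p = 0.0387). Without 3D replicates 1 and 2 the values were −0.53 and 0.36. The GC and length offset ended the second call (0.37, adjusted p = 0.067). The first call was lost without 3D replicate 1 or any 2D library (adjusted p 0.0714 to 0.083), and the second without any 1 of 3D replicates 1 and 2 or the animal libraries (adjusted p 0.0572 to 0.13).

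DSC2, desmocollin 2, had 102, 103 and 74.5 CPM in animal, against 20.2, 10.2 and 61.1 CPM in 3D and 23.9, 30.3 and 25.1 CPM in 2D. Animal libraries were the highest, and 3D replicate 3 was closer to them than to the other 3D libraries. The rise was 1.64 ± 0.57 in animal against 3D (adjusted p = 0.0451) and lost the call in 9 of 16 alternatives, among them leaving out 3D replicate 1 (1.40, adjusted p = 0.148) or 2 (1.21, adjusted p = 0.0626) or any animal library (adjusted p 0.0737 to 0.109). With the GC and length offset it kept the call at 0.47 (adjusted p = 0.0374). DSG2, desmoglein 2, had 324, 339 and 268 CPM in animal, against 150, 78.0 and 486 CPM in 3D and 288, 305 and 288 CPM in 2D. Its 3D libraries fell on both sides of the other groups, and it was not called. Desmoplakin (DSP) averaged 413 ± 47.1 CPM in animal, 460 ± 144 in 3D and 468 ± 16.5 in 2D, and PKP2 averaged 88.3 ± 16.1, 42.6 ± 25.8 and 58.8 ± 2.75 CPM (SD, n = 3 each), neither of them called.

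E-cadherin was higher than 2D in both other groups of the round, and the member catenins CTNNA1 and CTNND1 were not called. The catenin CTNNB1, outside the members, was lower in 3D than in 2D and is given below. CDH1 had 94.6, 113 and 62.5 CPM in animal, against 49.3, 77.9 and 73.6 CPM in 3D and 24.7, 34.3 and 32.3 CPM in 2D. The 2D libraries lay below the others, and animal and 3D overlapped. CDH1 rose by 1.10 ± 0.29 in 3D against 2D (adjusted p = 0.0196) and by 1.58 ± 0.29 in animal against 2D (adjusted p = 0.00847). Both calls held with the GC and length offset, at 1.36 (adjusted p = 0.00357) and 1.57 (adjusted p = 0.00166). Without 3D replicates 1 and 2 the values were 1.28 and 1.56. Leaving out any 2D library took the first to an adjusted p of 0.0586 to 0.0856, and leaving out 2D replicate 1 took the second to 0.0537. CTNNA1, alpha-catenin, averaged 346 ± 48.1 CPM in animal, 419 ± 62.9 in 3D and 386 ± 7.23 in 2D. CTNND1, p120-catenin, averaged 493 ± 4.81, 572 ± 137 and 528 ± 8.66 CPM in the same order (SD, n = 3 each).

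Both connexins were higher in animal. GJB1, connexin 32, had 2.69, 12.7 and 3.35 CPM in animal, against 0.393, 0.0736 and 0.0612 CPM in 3D and 0.107, 0.0531 and 0.268 CPM in 2D. It was near absent in culture, with 7 reads in 3D and 8 in 2D, against 289 reads in animal. GJB1 rose by 5.40 ± 0.90 on the log2 scale against 2D (adjusted p = 0.00597) and 5.21 ± 0.91 against 3D (adjusted p = 0.0033), and all 16 alternatives kept both calls. GJB2, connexin 26, had 9.51, 20.1 and 13.4 CPM in animal, against 8.80, 6.26 and 9.24 CPM in 3D and 4.70, 4.14 and 4.67 CPM in 2D. The 3 groups did not overlap, and animal replicate 1 was just above 3D. GJB2 rose by 1.69 ± 0.33 in animal against 2D (adjusted p = 0.011), not called without any 1 of the 2D libraries (adjusted p 0.0578 to 0.0678), and the difference from 3D was not called (0.88 ± 0.32, adjusted p = 0.0539).

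**Figure D4:**
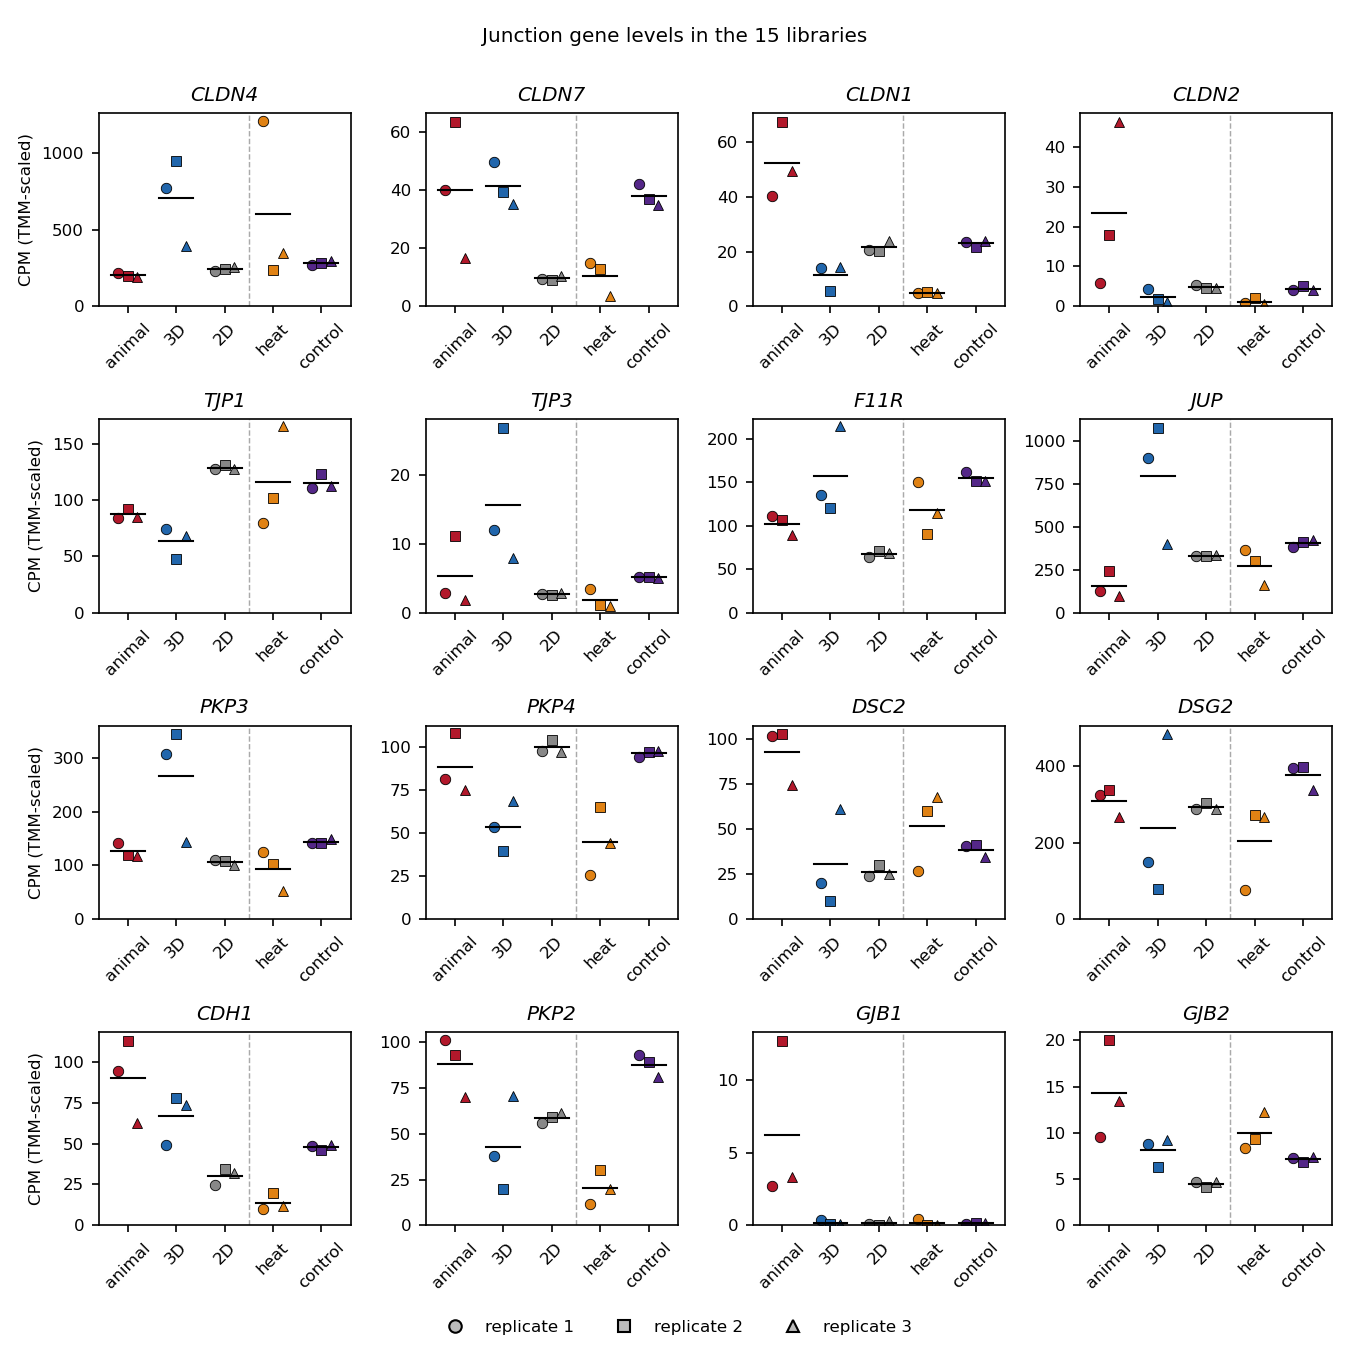
CPM (y axis, TMM-scaled over 15 libraries, starting at 0) of 16 junction genes in each library, with 1 marker shape a replicate, horizontal lines at group means and a dashed line between the first round (animal, 3D, 2D) and the second (heat, control). CLDN4, JUP and PKP3 are higher in 3D replicates 1 and 2 than in replicate 3, GJB1 is above 2 CPM only in animal, and CLDN1, CDH1 and PKP2 are lower in every heat library than in every control library.

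The animal libraries also differed from culture in markers of liver cells and of stroma, and animal replicate 2 stood apart within them. Of 9 tested liver cell markers, 6 were higher in animal than in 2D and 1 was lower, beside 7.78% and 4.25% of all genes. ALB had 115, 89.9 and 282 CPM in animal against 2.12 to 2.58 CPM in 2D, while APOB had 3.53, 8.89 and 7.18 CPM in animal against 22.3 to 25.3 CPM in 2D, and APOA1 at most 0.179 CPM in animal against 1.17 to 1.71 CPM in 2D. The 10 liver cell markers summed to 335 to 490 CPM in animal, 17.8 to 42.9 in 3D and 36.2 to 39.9 in 2D. The 12 fibroblast and pericyte markers summed to 255, 461 and 175 CPM in animal replicates 1, 2 and 3, against 55.1 to 180 CPM in 3D and 125 to 134 CPM in 2D. Of the 7 tested, 5 were higher in animal than in 2D and 1 was lower. Among their defining markers, COL3A1 averaged 36.2 CPM in animal, against 0.544 in 3D and 0.729 in 2D. COL6A3 went the other way, with 5.92, 2.83 and 11.7 CPM in animal against 60.1 to 68.4 CPM in 2D. LUM overlapped, at 39.5 to 63.9 CPM in animal and 48.5 to 54.5 CPM in 2D, and THY1 had 0 reads in animal. The bile duct keratin KRT19 had 1.91, 85.7 and 7.90 CPM in animal. Replicate 2 was also the highest animal library of most junction members. Among these were MARVELD3, TJP3, GJB1, GJB2, CLDN14, CLDN11, CLDN1, CLDN7, CDH1 and JUP, while CLDN2, CLDN4, CLDN12, F11R and PKP3 were highest in another animal library. Endothelial CDH5 had 22 reads in animal against 2 in 3D and 1 in 2D, while VWF had 1 read in animal. The 9 endothelial markers summed to 44.9 to 66.4 CPM in animal, 68.3 to 129 in 3D and 47.2 to 59.5 in 2D. ESAM made up most of that sum, with 67.2 to 127 CPM in 3D, while KDR had 4.25, 4.51 and 15.1 CPM in animal against 0.442 to 1.18 CPM in 3D. The 11 macrophage and leukocyte markers summed to 163 to 219 CPM in animal, 387 to 501 in 3D and 103 to 110 in 2D, most of it CD68 with 373 to 478 CPM in 3D. By contrast LYZ had 2.45, 9.09 and 5.62 CPM in animal against at most 0.0786 CPM in 3D, CD163 had 3.05 to 6.06 against at most 0.489 CPM, and CD74 18.4 to 23.8 against 3.24 to 9.49 CPM. Other markers of this list did not rise. TYROBP had 0 reads in every animal library and FCER1G at most 1. CD14 had 0, 1 and 4 reads in animal against 3, 7 and 7 in 3D. Their part in the junction gene results was not tested. In bulk RNA, fewer cells of a type and less RNA per cell cannot be told apart.

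After heat, no junction gene passed the test, although 14 of the 29 tested had an unadjusted p below 0.05 in edgeR, beside 2628 of all 12627 genes. The background was as low, with 3 of 12627 genes called (0.0238%), 1 higher and 2 lower (0.00792% and 0.0158%). DESeq2 called 4 members higher (CLDN9, CLDN14, CLDN15 and MARVELD3) and 7 lower (CLDN1, CLDN2, CLDN7, CDH1, CTNND1, DSP and PKP2), and 851 and 690 of all genes. Heat and control did not overlap in 21 of 29 members, beside 36.7% of all genes, and the members' median log2 fold change was −0.53 beside 0.10 over all genes. Without heat replicate 1, edgeR called 4 members higher (CLDN9, CLDN14, CLDN15 and DSC2) and 12 lower, and 1795 and 1896 of all genes. Without heat replicate 2 it called 5 members higher and 5 lower, and 585 and 460 of all genes. With the GC and length offset it called 5 members each way, and 693 and 704 of all genes.

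The members given by library in the heat comparison were chosen after their values were seen, except those described by library for the first round. CLDN1 had 4.68, 5.22 and 4.92 CPM in heat, against 23.6, 21.5 and 23.9 CPM in control. The 3 heat libraries lay close together and far below control, although they differed in composition. The log2 fold change was −2.18 ± 0.24 (adjusted p = 0.0699), and it was −1.96 with the GC and length offset (adjusted p = 0.0197) and −2.15 without heat replicate 1 (adjusted p = 0.00428). CLDN7 had 14.9, 12.8 and 3.63 CPM in heat, against 42.2, 36.9 and 34.8 CPM in control, a log2 fold change of −1.83 ± 0.51 (adjusted p = 0.135). CLDN2 had 0.748, 2.08 and 0.503 CPM in heat, against 4.13, 5.04 and 4.04 CPM in control, a log2 fold change of −1.92 ± 0.54 (adjusted p = 0.138). Heat lay below control in every library for these 3 claudins.

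Of the adhesion and plaque genes, CDH1 and PKP2 had the largest negative values in heat. CDH1 had 10, 19.8 and 11.6 CPM in heat, against 48.6, 46.1 and 49.0 CPM in control, a log2 fold change of −1.76 ± 0.32 (adjusted p = 0.0904). PKP2, plakophilin 2, had 11.5, 30.0 and 19.6 CPM in heat, against 92.9, 88.9 and 81.0 CPM in control, a log2 fold change of −2.07 ± 0.37 (adjusted p = 0.0904). Neither gene's groups overlapped. Without heat replicate 1 the values were −1.58 for CDH1 (adjusted p = 0.011) and −1.79 for PKP2 (adjusted p = 0.00615). The catenin CTNND1 had 246, 400 and 296 CPM in heat, against 574, 557 and 573 CPM in control, and its log2 fold change was −0.82 ± 0.30 (adjusted p = 0.196). DSP had 303, 366 and 483 CPM in heat, against 742, 714 and 636 CPM in control (−0.82 ± 0.31, adjusted p = 0.209). Both genes had every heat library below control.

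CLDN15, CLDN14, CLDN9 and MARVELD3 had higher values in heat. CLDN15, a claudin of cation pores in the intestine, had 74.1, 19.3 and 43.9 CPM in heat, against 12.7, 12.5 and 12.6 CPM in control, a log2 fold change of 1.91 ± 0.49 (adjusted p = 0.123). CLDN14 had 7.67, 1.55 and 5.59 CPM in heat, against 0.172, 0.229 and 0.351 CPM in control (4.30 ± 0.73, adjusted p = 0.0888). CLDN9 had 24.5, 1.55 and 6.54 CPM in heat, against 0.745, 0.801 and 0.820 CPM in control (3.81 ± 0.99, adjusted p = 0.123). All heat libraries of these genes exceeded control, and heat replicate 2 was the lowest heat library of each. MARVELD3 had 5.05, 0.532 and 4.19 CPM in heat, against 0.286, 0.114 and 0.293 CPM in control (3.81 ± 0.92, adjusted p = 0.116), and its lowest heat library was again replicate 2. Without heat replicate 1 the values were 1.36 for CLDN15 (adjusted p = 0.035), 3.83 for CLDN14 (adjusted p = 0.0179), 2.38 for CLDN9 (adjusted p = 0.0405) and 3.34 for MARVELD3 (adjusted p = 0.0511).

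CLDN4 in heat rested on a single library. It had 1210, 237 and 349 CPM in heat, against 268, 281 and 297 CPM in control. Heat replicate 1 lay far above the rest, and replicates 2 and 3 fell on either side of control. Its log2 fold change was 1.14 ± 0.63 (adjusted p = 0.336), and 0.09 without heat replicate 1 (adjusted p = 0.729). CLDN4 made up 75.8 ± 11.4% of claudin reads in heat and 66.5 ± 2.03% in control (SD, n = 3 each). JUP had 366, 299 and 159 CPM in heat, against 384, 413 and 427 CPM in control, PKP3 had 125, 103 and 52.6 CPM against 141, 141 and 150 CPM, and PKP4 had 25.8, 64.8 and 44.1 CPM against 93.8, 96.6 and 97.7 CPM. In all 3 genes every heat library was below control, and none was called. F11R had 150, 90.1 and 115 CPM in heat against 162, 151 and 151 CPM in control, and TJP3 had 3.37, 1.11 and 0.950 CPM in heat against 5.21, 5.09 and 5.04 CPM in control. TJP1 had 79.8, 102 and 166 CPM in heat against 111, 123 and 113 CPM in control, DSC2 had 26.5, 60.3 and 67.9 CPM against 40.4, 41.0 and 34.3 CPM, and GJB2 had 8.33, 9.33 and 12.3 CPM against 7.33, 6.81 and 7.38 CPM. TJP1 and DSC2 overlapped between the groups, while F11R and TJP3 were below control and GJB2 above it in every library.

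Other junction genes gave a mixed picture in 3D and animal, and none was called in heat. Of 19 tested other tight junction genes, 3 were higher in 3D than in 2D (LSR, CLDN18 and CRB3) and 3 lower, among them PARD6G and MAGI3. Of all genes, 20.0% were called higher and 12.9% lower in 3D against 2D. LSR, angulin-1 of tricellular contacts, averaged 9.17 ± 4.63 CPM in 3D and 1.90 ± 0.18 in 2D (log2 fold change 2.20 ± 0.43, adjusted p = 0.00705). By 3D library LSR had 10.9, 12.7 and 3.92 CPM, and CLDN18 5.03, 1.25 and 2.94 CPM. CRB3 had 43.2, 41.4 and 17.7 CPM in 3D against 15.7 to 16.9 CPM in 2D. The alternatives are given for the members only, so edgeR calls of other genes carry no such check here. CLDN18, known from stomach and lung, had 8.91, 9.70 and 11.5 CPM in animal against 0.909, 0.584 and 0.644 CPM in 2D (3.82 ± 0.50, adjusted p = 0.00222). In animal against 2D, 2 of the 19 were higher (CLDN18 and CGNL1) and 1 lower (AMOTL2), and against 3D 6 were higher, led by PARD6G, CGNL1 and JAM3, and 3 lower (LSR, CRB3 and AMOTL2). The shares of all genes were 7.78% higher and 4.25% lower against 2D, and 18.6% and 22.9% against 3D. The same shares stand beside the lists that follow.

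Of 11 tested adherens genes outside the members, NECTIN1 and NECTIN2 were higher and CTNNB1 (beta-catenin) and PLEKHA7 lower in 3D than in 2D. CTNNB1 averaged 231 ± 41.1 CPM in 3D and 375 ± 5.8 in 2D (−0.73 ± 0.22, adjusted p = 0.0343; SD, n = 3 each). None of the 11 was called in animal against 2D in edgeR, where 1 had an unadjusted p below 0.05, and against 3D PLEKHA7 was higher and NECTIN2 lower. Of 6 other desmosome genes, none was called in 3D against 2D and 1 had an unadjusted p below 0.05. DSG4 was higher in animal than in 2D and in 3D, and EVPL and PPL were lower in animal than in 3D. Of 4 other gap junction genes, PANX1 was lower in 3D than in 2D, none was called in animal against 2D, and PANX2 was lower in animal than in 3D.

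Of 11 tested transcription factors and splicing regulators of epithelial genes, the ETS factors ELF3 and EHF moved in opposite directions in 3D. ELF3 had 223, 159 and 123 CPM in animal, against 577, 655 and 320 CPM in 3D and 135, 134 and 135 CPM in 2D. EHF had 70.5, 66.5 and 65.6 CPM in animal, against 16.4, 20.9 and 20.7 CPM in 3D and 36.7, 37.8 and 35.9 CPM in 2D. The EHF groups of the first round did not overlap, and within each group its libraries lay close together. In control, also in the 3D model, EHF had 35.8, 40.7 and 31.3 CPM, overlapping 2D. ELF3 had 245, 234 and 232 CPM there, above 2D. ELF3 rose by 1.89 ± 0.29 in 3D against 2D (adjusted p = 0.00306) and fell by 1.56 ± 0.29 in animal against 3D (adjusted p = 0.00429). EHF fell by 0.96 ± 0.18 in 3D against 2D (adjusted p = 0.00602) and rose by 0.89 ± 0.18 in animal against 2D (adjusted p = 0.0135). ZEB2, a repressor of CDH1, averaged 15.1 ± 1.44 CPM in animal, 2.79 ± 2.59 in 3D and 3.31 ± 0.468 in 2D (SD, n = 3 each), higher in animal than in both (adjusted p = 0.0114 against 3D and 0.0382 against 2D). SNAI1, another E-box repressor, was lower in animal (12.6 ± 1.91 CPM) than in 3D (44.3 ± 23.7 CPM), by a log2 fold change of −1.74 ± 0.35 (adjusted p = 0.00556). GRHL2 and ESRP1, which mark many epithelia, had at most 0.374 and 0.160 CPM in any library. GRHL3, OVOL1 and OVOL2 of the same list had at most 0.187, 0.281 and 1.14 CPM. Others of the list were expressed, with ESRP2 at 28.7 to 30.6 CPM and KLF5 at 77.4 to 83.0 CPM in 2D.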

How the data were processed

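As deposited, the table holds unnormalised read counts by gene symbol, with 1 column for each of the 15 libraries. Per the labels' protocols, mRNA was fragmented, primed with random hexamers and sequenced as single-end 50-base DNA nanoball reads, with no molecular identifiers and no step that marks the strand. The submitters' processing notes name HISAT2 and hg19 and give no version. How reads were counted, with which annotation and strand setting, and whether host reads were removed is not given in the sources used here. Total counts were 12605539 to 18634295 per library.

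Counts were tested with edgeR 4.0.16 in R 4.3.3. Genes passed filterByExpr by group, library sizes were scaled with TMM, and the robust quasi-likelihood fit with group as its only term used the 9 libraries of the first round, and apart from them the 6 of the second, with Benjamini-Hochberg adjustment over all genes tested. TMM factors were 0.727 and 0.729 in 3D replicates 1 and 2 and 0.668 in heat replicate 1, against 0.983 to 1.28 elsewhere, which raises the CPM of every gene in those 3 libraries. The tests were tried on simulated data. Transcript length, GC content and exon overlaps came from GENCODE 29 (GRCh38), which gave length and GC content for 99.5% of tested genes, and promoters from RefSeq (GRCh38.p14).

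Alternatives were DESeq2 1.42.0, other scalings, filters and fold thresholds, a replicate block, a per-library offset for the trends with GC content and with length (each a spline of 5 degrees of freedom), fits to the compared pair alone, and fits without single libraries or without those that stand apart. Values by library are given for members with a call, groups that do not overlap and a mean of at least 10 CPM. Those of CLDN6, CLDN9, CLDN12, CLDN14, CLDN15, OCLN, MARVELD3, DSG2, DSP, PKP2, CTNND1 and GJB1 were chosen after their values were seen. From each list of other junction genes, the called members with the smallest adjusted p, at most 3 in each direction, are named where reported here. The members and lists were chosen with earlier results of these data known. CLDN22 and PECAM1 from those lists are not analysed here, and some results of those lists are not reported here.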

Additional observations from a re-analysis of the deposited data

How the results depend on the processing

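Calls that held in all 16 alternatives were CLDN4 and F11R in 3D against 2D, GJB1 in animal against 2D, and CLDN1, CLDN2, CLDN4, JUP and GJB1 in animal against 3D. DESeq2 called 8 members higher and 1 lower in animal against 2D, 5 lower in animal against 3D, and 4 higher and 7 lower in heat against control, and of all genes 1007 lower in animal against 2D and 851 higher and 690 lower in heat against control. The GC and length offset gave 13 members higher and 3 lower in animal against 2D, 5 lower in animal against 3D and 5 higher and 5 lower in heat, and of all genes 1629 higher and 2455 lower in animal against 2D and 693 higher and 704 lower in heat. Fits to the compared pair alone gave 1 member lower in 3D against 2D, 16 higher and 4 lower in animal against 2D and 4 higher in animal against 3D, and of all genes 1695 and 798, 3751 and 3538, and 996 and 1750. Without 3D replicates 1 and 2, 11 members were higher in 3D against 2D, 15 higher and 4 lower in animal against 2D and 5 lower in animal against 3D, with 3205 genes lower in 3D against 2D and 3865 higher and 3696 lower in animal against 2D. A fold threshold of 1.5 left 4 members higher and 1 lower in 3D against 2D, and of all genes 1246 and 546, 636 and 220, 1204 and 1717 in the 3 first-round comparisons and 0 lower in heat. Median-ratio scaling left 0 and no filter 1 gene lower in heat. Upper-quartile scaling moved the median log2 fold change of all genes to 0.21 in animal against 3D, where the members' was 0.52, and to −0.02 in heat, where the members' was −0.67.

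Same-numbered libraries correlated at −0.187 to 0.125 in their deviations from group means, so no pairing by replicate number was seen. The deviations in 3D and heat include those of the libraries that stand apart, so these values cannot exclude a weaker pairing. A replicate block gave 6 members higher and 1 lower in 3D against 2D, 322 genes lower in animal against 2D, and 22 genes higher and 8 lower in heat with 0 members called.

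Leaving out 1 library gave 3 to 9 members higher and 1 to 9 lower in 3D against 2D, 1 to 6 and 0 to 1 in animal against 2D, 3 to 14 and 2 to 6 in animal against 3D, and 0 to 5 and 0 to 12 in heat. Of all genes, it gave 1132 to 4560 higher and 663 to 4933 lower, 446 to 768 and 199 to 386, 1377 to 5596 and 1943 to 4536, and 0 to 1795 and 0 to 1896. Some members that were not called, and PKP3, took the other sign in some alternatives, and the cause was not tested. Values without 3D replicates 1 and 2 rest on 1 3D library. In 3D against 2D, CLDN12 was 0.60 with the offset and 0.94 without 3D replicates 1 and 2, DSG2 0.73 and CTNND1 −0.33 without the same libraries, and with 1 3D library left out OCLN ranged over −0.70 to 0.43 and DSC2 over −0.87 to 0.62, each lowest without 3D replicate 3 and highest without replicate 2. In animal against 3D, DSG2 was −0.66 and CTNND1 0.23 without 3D replicates 1 and 2, and PKP3 was 0.31 with the offset. Few reads limit CLDN9, CLDN14, MARVELD3 and GJB1, each with 7 to 15 reads in its lowest first-round group.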
